A study of Rattus norvegicus with 20 samples.

Results

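White adipose tissue of rats given 20% less food for 1 month was compared with that of control rats. The comparison held 4 of the 20 adipose arrays of the series: the 2 chips of the group 1month 20%CR and the 2 chips of the group 1month control, chosen by their labels. All animals were male Wistar rats, an outbred laboratory strain with no introduced allele, and entered the experiment at 6 weeks of age. Control rats received the whole daily intake recorded in freely fed rats, and the restricted rats received 20% less of the same powdered diet. Both groups were fasted for 16 h before sampling. The tissue was visceral fat according to the study's methods. RNA of 5 rats was pooled in each group and the labelled RNA of a pool was divided over 2 chips of the Affymetrix Rat Expression Set 230. Duplicate chips thus repeat the hybridization only, and each group holds 1 pool, so that no test of 20% restriction against control at 1 month alone is possible and differences between individual rats cannot be seen.

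Visceral fat is a mixture. Adipocytes store fatty acids as triglyceride and release them by lipolysis when food is short, and they burn some of them in mitochondria and peroxisomes. Vessels, mesothelium, macrophages and, where a lymph node or lymphoid cluster is included in the piece, B and T lymphocytes contribute RNA as well. Since the arrays measured pooled whole tissue, fewer cells of a type and less RNA per cell cannot be told apart. Food intake also sets the time of day in peripheral clocks, in which the PAR bZIP factors Dbp, Tef and Hlf and the Per, Cry and Rev-erb repressors are the best known output and negative-arm genes.

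A probe set was counted as having risen or fallen where both chip pairs, matched by replicate number, differed in the same direction and their mean difference was at least 1.5-fold. Of 9520 probe sets with sufficient signal, 601 rose (6.31%) and 972 fell (10.2%) in the 20% pool, and 7947 were not called. Among the 7113 genes these probe sets represent, 448 rose (6.3%) and 726 fell (10.2%). This balance depended on the scale of the chips: centring each chip on its median gave 859 higher and 731 lower probe sets, with a shift of 0.10 (log2) in the median of all tested probe sets, and quantile normalization gave 767 and 739, with a shift of 0.069. Replicate chips correlated at 0.980 in the 20% pool and 0.978 in the control pool, whereas a 20% chip and a control chip correlated at 0.918 to 0.929. Between the chips of a pool, 6.29% of probe sets in the 20% pool and 5.62% in the control pool lay at least 1.5-fold apart. The paired differences of a probe set lay a median of 0.104 (log2) from their mean.

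The deepest differences belonged to lymphocytes. Ighl2, an immunoglobulin chain gene, had signals of 2406.7 and 2292.4 on the control chips and 22.5 and 23.1 on the 20% chips, a 103-fold lower level. Cd79b, a signalling subunit of the B cell receptor, had 280.2 and 267.6 against 1.4 and 6.3. Cd3g, a subunit of the T cell receptor complex, had 454.9 and 536.3 against 14.9 and 20.7. For these genes the chips of both pools were far apart, and the 20% signals of Cd79b approached the floor of 1. Cxcl13, the chemokine that draws B cells into follicles, was 31.9-fold lower, with 500.3 and 567.9 in the control pool and 12.9 and 21.6 in the 20% pool. Glycam1, a ligand made by the high endothelial venules of lymph nodes, was 21.0-fold lower. Iglc1, Cd3d, Lef1 and Coro1a, which are an immunoglobulin constant region gene, a T cell receptor subunit, a T cell transcription factor and a leukocyte actin regulator, were lower by means of -5.07, -5.76, -4.70 and -4.23 on the log2 scale. In the 20% pool Cd3d was at 10.0 and 2.5 and Lef1 at 3.9 and 2.7, signals so low that the size of these folds is uncertain, and the chip pairs of Cd3d gave -4.71 and -6.82 and those of Cd79b -7.64 and -5.41.

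**Figure D1:**
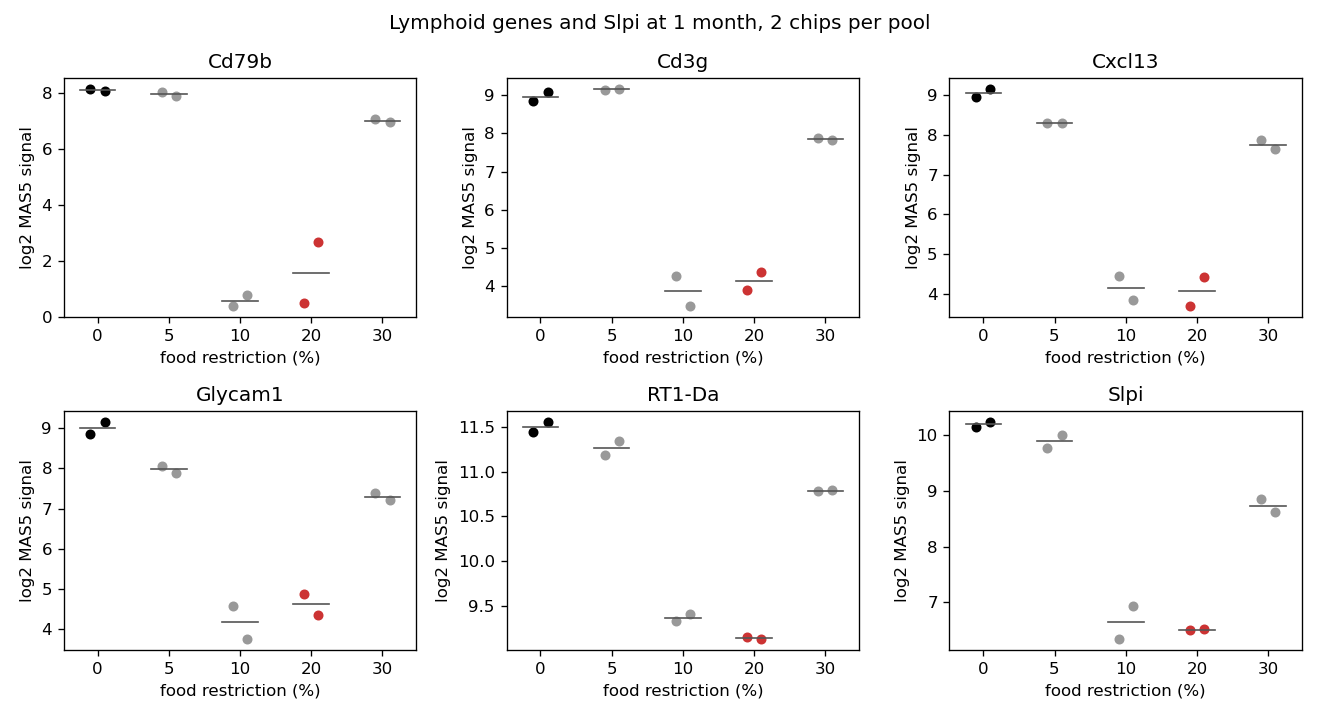
Signal of 5 lymphoid genes and Slpi (log2 MAS5 signal, linear axis that does not start at 0) in the 5 pools at 1 month, by food restriction in percent; points are the 2 chips of a pool, lines their mean, with control in black and 20% in red. Cd79b fell from 280.2 and 267.6 in the control pool to 1.4 and 6.3 in the 20% pool, and the 10% pool was as low, while the 5% and 30% pools lay nearer to the control.

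All 3 tested B cell markers, 11 of 12 T cell markers and 8 of 9 genes of lymphoid tissue chemokines and stroma fell, with median differences of -2.19, -3.38 and -3.54 against -0.03 over all tested genes. All 9 tested genes of class II antigen presentation fell with a median of -2.26. RT1-Da, which encodes a class II alpha chain, had 2786.0 and 2997.4 in the control pool and 571.7 and 560.2 in the 20% pool. Of 18 cell cycle genes 15 fell and none rose, with a median of -0.996, among them the replication licensing gene Mcm3 at -2.49. Of 15 interferon response genes 7 fell and 2 rose. The fallers included the immunoproteasome subunits Psmb10 (-1.63), Psmb8 (-1.60) and Psmb9 (-1.57), and the risers were Ifit3 (0.59) and Oas1a (0.72), which are named because they were the exceptions.

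A lymphocyte score, the mean log2 signal of 7 lymphocyte genes, was 7.77 in the control pool but 3.86 in the 20% pool. It was 7.69, 3.76 and 6.79 in the 5%, 10% and 30% pools of 1 month and therefore did not follow the degree of restriction. The 10% pool was as low as the 20% pool, and the 30% pool was nearer to the control. At 1 week the score was 7.76 in the control and 7.01, 5.85, 6.31 and 3.46 from 5% to 30%. The part of the amount of lymphoid tissue in the sampled pieces in these differences was not tested.

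To describe the other changes apart from the lymphocytes, each probe set was correlated with the score over the 6 pools of 5%, 10% and 30% restriction at both durations, which do not enter the comparison. The correlation is a description over 6 points, so a gene just short of a limit hardly differs from one just past it. At or above 0.8 lay 1513 probe sets (15.9% of those tested), and these made up 562 of the 972 that fell (57.8%). At or below -0.8 lay 942 (9.89%), among them 171 of the 601 that rose (28.5%). Of the 106 probe sets at least 4-fold lower, 105 followed the score, and the exception was Tdg. Leaving out these probe sets and the lymphoid lists left 7048 probe sets, of which 424 rose and 400 fell. The lymphoid lists were left out whatever the correlation of their genes. They included the cell cycle and interferon lists, of which 13 of 18 and 5 of 15 genes followed the score. In genes, 315 of 5228 rose (6.03%) and 285 fell (5.45%) on the deposited scale, a balance that depends on the scaling and on the limit, since a limit of 0.9 gave 535 and 577 probe sets.

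**Figure D2:**
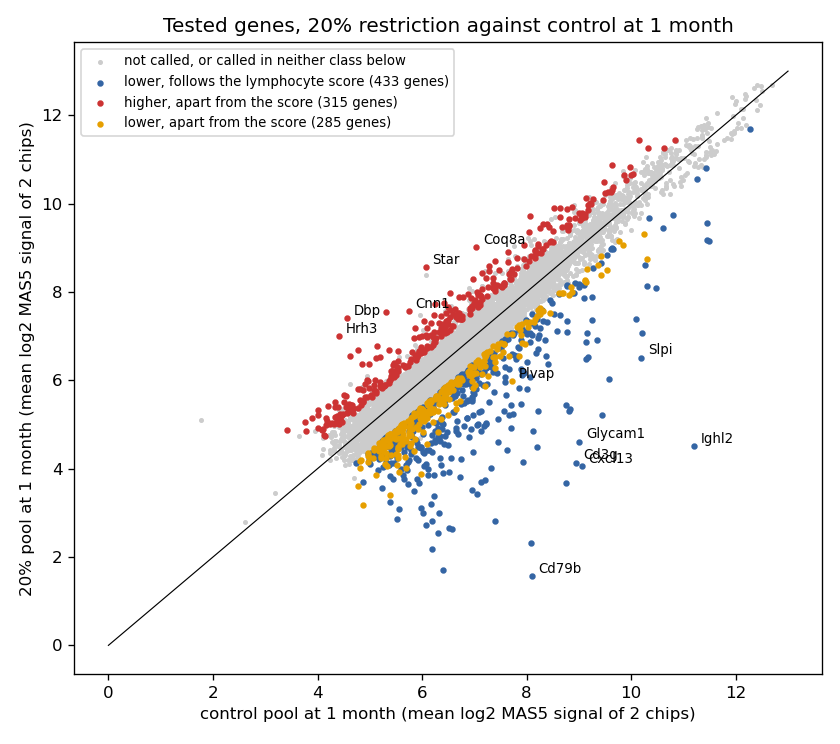
Mean log2 MAS5 signal of each tested gene at 1 month, with the control pool on the horizontal and the 20% pool on the vertical axis, with the line of equal signal. The genes that fell together with the lymphocyte score (433, blue) reach far below the line, whereas those that rose (315, red) or fell (285, orange) apart from it stay close to it.

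Adipocyte genes were higher in the 20% pool. All 12 tested adipocyte identity genes were above the control in both chip pairs, 4 of them were called, and their mean log2 signal was 9.78 against 9.30. The mean was 9.58, 9.85 and 9.66 in the 5%, 10% and 30% pools. Pparg, the nuclear receptor that maintains the adipocyte, rose 2.21-fold from 378.9 and 368.8 to 840.2 and 812.6. Acvr1c, an activin receptor of fat cells, rose 2.03-fold, Pnpla2, the triglyceride lipase that starts lipolysis, 1.91-fold, and Lipe, the hormone-sensitive lipase, 1.52-fold. Acvr1c and Pnpla2 lay apart from the lymphocyte score, Pnpla2 at -0.76. Pparg and Lipe ran against it, with correlations of -0.96 and -0.90. Fabp4, the fatty acid carrier of adipocytes, had 5099.8 and 4238.5 against 5777.4 and 5699.2, Cfd (adipsin) 5375.3 and 5051.1 against 6321.6 and 6248.4, and neither reached the call. Lep, the satiety hormone leptin, had 470.1 and 473.1 in the control pool and 501.9 and 474.5 in the 20% pool, a difference of 0.05 (log2) that turned to -0.01 under quantile normalization.

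In this comparison the lower lymphoid signal came with a higher adipocyte signal, and the part of the one in the other was not tested. Against the control of 1 month, the identity mean was 0.28, 0.55 and 0.36 (log2) higher at 5%, 10% and 30%. The lymphocyte score of these pools differed by -0.08, -4.01 and -0.98. At 20% the identity mean differed by 0.48, so a gene of the fat cell can differ by about that much with no difference from the other identity genes. The lists of the fat cell below are therefore also counted with these 12 genes set to no change, an alternative chosen after the data were seen. Here the mean of the 12 was subtracted from each chip, so single identity genes can still differ. An identity gene such as Pparg is then set against a mean that contains it. On that scale 97 probe sets rose and 4089 fell, and 76 of 7113 genes rose and 3010 fell. Counts of rising genes on it concern the genes that exceeded the fat cell markers. Counts of falling genes in a list are to be read beside the 3010 of 7113 that fell over all tested genes.

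Genes of fatty acid oxidation rose. Of 19 genes of mitochondrial beta-oxidation 9 rose and none fell, with a median of 0.58, and 18 were higher in both chip pairs. Cpt2, the inner carnitine palmitoyltransferase, had 147.3 and 134.7 in the control pool and 282.5 and 283.7 in the 20% pool, a 2.01-fold rise. Acadl, the long-chain acyl-CoA dehydrogenase, rose 1.72-fold, Cpt1b, the muscle-type outer carnitine palmitoyltransferase, 1.66-fold, and Etfdh, which passes the electrons on to ubiquinone, 1.65-fold. Cpt1a was the exception at -0.28. Of the 9 risers 2 lay apart from the lymphocyte score, Acadl among them at -0.75. Cpt2, Cpt1b and Etfdh ran against it with correlations of -0.88, -0.89 and -0.87, as did 10 of the 19 genes. With the identity genes set to no change, none of the 19 rose and Cpt1a fell.

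Of 14 peroxisomal genes 6 rose, with a median of 0.48. Ehhadh, the bifunctional enzyme of peroxisomal beta-oxidation, stood out with 30.4 and 24.6 in the control pool and 97.2 and 109.1 in the 20% pool, a 3.77-fold rise, and it remained higher with the identity genes set to no change, the only one of the 14 to do so. Decr2, Ech1 and Pecr, further peroxisomal enzymes of unsaturated or enoyl-CoA, rose 1.74-fold, 1.70-fold and 1.69-fold. Of the 6 risers 3 lay apart from the lymphocyte score, among them Ehhadh at -0.63 and Pecr at -0.796, just short of the limit. Decr2 and Ech1 ran against it, both at -0.87.

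Branched-chain amino acid catabolism, for which fat is a main site, had 8 of 18 genes higher and none lower, with a median of 0.54. Hibch, the hydrolase of the valine pathway, rose from 220.3 and 183.4 to 417.2 and 442.0 and alone of the 18 stayed higher with the identity genes set to no change. Bckdha, a subunit of the branched-chain keto acid dehydrogenase, rose 1.68-fold, and Acadsb and Mccc1, which act further down the isoleucine and leucine pathways, rose 1.66-fold and 1.65-fold. Of the 8 risers 4 lay apart from the lymphocyte score, Mccc1 among them at -0.75. Hibch, Bckdha and Acadsb ran against it at -0.83, -0.89 and -0.86. Relative to the identity genes, 1 gene of the list, the phosphatase Ppm1k, fell. None of 18 genes of the tricarboxylic acid cycle and none of 35 of oxidative phosphorylation was called, although 17 and 32 of them were higher in both pairs. Their medians of 0.39 and 0.29 lay near the 0.36 of the adipocyte identity genes.

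**Figure D3:**
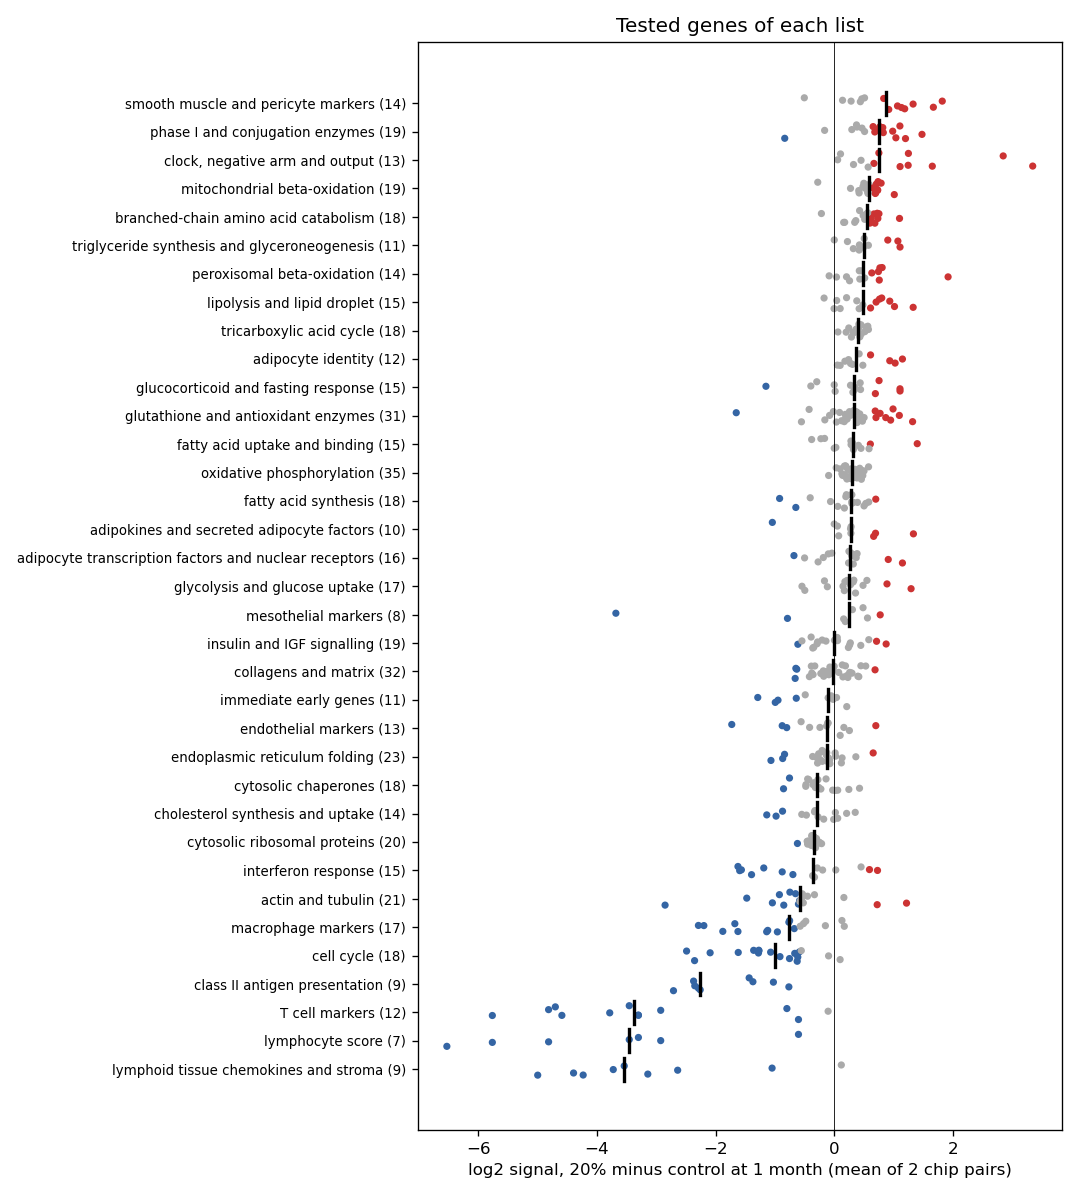
Difference between the 20% and control pools at 1 month (log2 signal, mean of 2 chip pairs) for lists with at least 5 tested genes, their number in parentheses; red points rose, blue points fell, grey points were not called, and the black bar is the list's median. Smooth muscle, phase I and clock output genes have medians of 0.87, 0.75 and 0.75, adipocyte identity genes 0.36, and T cell, lymphoid stroma and class II genes -3.38, -3.54 and -2.26.

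Lipid storage and release genes rose in part. Of 15 lipolysis and lipid droplet genes 7 rose with a median of 0.48. Pde3b, the phosphodiesterase through which insulin restrains lipolysis, had 154.8 and 154.7 in the control pool and 395.6 and 379.9 in the 20% pool, a 2.51-fold rise. The droplet proteins Plin4 and Cidea rose 2.01-fold and 1.74-fold, while Plin2 was at -0.18. Of 11 triglyceride synthesis genes 3 rose, namely the phosphatidate phosphatase Lpin1 (433.7 and 442.3 against 987.6 and 897.2), the last acyltransferase Dgat1 (476.1 and 487.2 against 939.7 and 1084.5) and Agpat2, which makes phosphatidate (1.86-fold). Of the 3 triglyceride synthesis genes only Lpin1, at -0.71, lay apart from the lymphocyte score, and Dgat1 and Agpat2 ran against it at -0.94 and -0.90. Of the 7 lipolysis and droplet genes 5 lay apart, Pde3b among them at -0.77. On the scale of the identity genes, Pde3b, Lpin1 and Dgat1 were still higher and Plin2 fell.

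Fatty acid uptake held 2 risers among 15 genes. Slc27a1, a fatty acid transport protein, rose 2.63-fold from 347.6 and 386.3 to 972.4 and 953.1, and the acyl-CoA synthetase Acsl1 rose 1.52-fold. Cd36, the fatty acid translocase, had 2097.2 and 2122.9 against 2727.7 and 2853.5, a difference of 0.40 that was not called. These are the values of its brightest probe set. The study listed another Cd36 probe set as up-regulated in this same comparison, by the change calls of its software. Fatty acid synthesis showed no common direction in its calls: of 18 genes Acss2, which makes cytosolic acetyl-CoA, rose 1.62-fold, and Pnpla3 and the desaturase Fads1 were 1.90-fold and 1.57-fold lower. Cholesterol synthesis and uptake had 3 of 14 genes lower and none higher, with a median of -0.30. Dhcr7, the last enzyme of cholesterol synthesis, had 270.4 and 231.5 in the control pool and 111.1 and 116.0 in the 20% pool, and Idi1, the isopentenyl diphosphate isomerase, was 1.98-fold lower. Srebf2, the transcription factor of this pathway, fell by 0.87 (log2), and it and Idi1 followed the lymphocyte score, while Dhcr7 did not. With the identity genes set to no change, 1 gene of fatty acid uptake rose and 3 fell, none of fatty acid synthesis rose and 3 fell, and none of cholesterol synthesis and uptake rose and 9 fell.

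The pyruvate dehydrogenase kinases Pdk1, Pdk2 and Pdk4, which turn the cell from glucose to fat oxidation, rose. Pdk1 and Pdk2 were the only genes called among 17 of glycolysis and glucose uptake. Pdk2 had 161.9 and 123.8 in the control pool and 387.1 and 309.5 in the 20% pool, Pdk4 115.5 and 106.2 against 263.3 and 215.0, and Pdk1 rose 1.85-fold. Slc2a4, the insulin-responsive glucose transporter, had a difference of 0.18 that was not called. Of 19 insulin and IGF signalling genes 2 rose, the receptor Insr 1.63-fold and its adaptor Grb10 1.83-fold, and Pik3r1, the regulatory subunit of phosphoinositide 3-kinase, was 1.53-fold lower. Of 15 glucocorticoid and fasting response genes 4 rose, including Tsc22d3 (1.68-fold), Lpin1 and Pdk4. The cell cycle inhibitor Cdkn1a fell by 1.15 (log2), from 144.8 and 162.9 to 62.1 and 76.7. Among 16 adipocyte transcription factors and nuclear receptors, Pparg and the liver X receptor Nr1h3 (1.87-fold) rose. Stat5b met the call at -0.68, but its chip pairs were at -1.31 and -0.054, so that 1 pair carried it. Relative to the identity genes, Pdk2 alone of the 17 glycolysis and glucose uptake genes rose, and Hk1, Hk2, Pfkp and Slc2a1 fell. None of the insulin and IGF signalling genes rose and 9 fell, and 2 of the glucocorticoid and fasting genes rose and 3 fell. Of the transcription factors Pparg, itself an identity gene, rose and 4 fell. Over all tested genes 3010 of 7113 fell on this scale.

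Among 10 adipokines and secreted factors, Nampt, the enzyme that recycles nicotinamide to NAD, rose 2.51-fold, with 133.1 and 118.1 in the control pool and 327.3 and 303.2 in the 20% pool. Metrnl (1.61-fold) and the angiotensin precursor Agt (1.58-fold) rose as well, and the peptide hormone Apln fell by 1.05 (log2). Glul, glutamine synthetase, had high signals of 1117.7 and 1142.0 against 2849.6 and 2714.5. On the scale of the identity genes, Nampt and Glul stayed higher and Apln lower, and no other adipokine was called.

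Genes of detoxification and redox balance formed a second group of risers. Of 19 phase I and conjugation enzymes 12 rose and 1 fell, with a median of 0.75, and 11 of the 12 lay apart from the lymphocyte score. Ephx1, at -0.75, came near the limit, and Por ran against the score at -0.82. Akr1c14, a hydroxysteroid dehydrogenase, had 78.2 and 73.8 in the control pool and 232.1 and 191.8 in the 20% pool. Ephx1, the microsomal epoxide hydrolase, rose 2.29-fold, Fmo1, a flavin-containing monooxygenase, 2.15-fold, and Por, the reductase that feeds cytochromes P450, 2.05-fold. With the identity genes set to no change, Akr1c14, Ephx1 and Fmo1 rose and 2 of the 19 fell. The faller was Cyp1b1, a cytochrome P450, at -0.84, named as the exception.

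Of 31 glutathione and antioxidant genes 8 rose and 1 fell. Gsr, which regenerates reduced glutathione, had 38.8 and 44.3 in the control pool and 100.7 and 105.7 in the 20% pool. Gss and Gclm, which act in glutathione synthesis, rose 2.13-fold and 1.98-fold. Hmox1, the haem oxygenase, fell 3.15-fold from 154.1 and 180.1 to 51.4 and 54.5, and it followed the lymphocyte score, with a correlation of 0.92. Relative to the identity genes, Gsr and Gss rose and 4 of the 31 fell.

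The clock genes held some of the largest rises. Dbp had 24.3 and 23.2 in the control pool and 174.2 and 166.1 in the 20% pool, a 7.16-fold rise in which both chip pairs agreed to 2.84 (log2). Tef, its close relative, had 11.6 and 0.8 in the control pool and 32.4 and 36.6 in the 20% pool. The control chip at 0.8, set to 1 before the logarithm, carries much of the mean difference of 3.34, and the other chip pair alone gave 1.48. Hlf, the remaining member of that family, rose 2.15-fold from 25.4 and 37.6 to 63.9 and 69.1.

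Of 13 tested genes of the clock's negative arm and output 8 rose and none fell, with a median of 0.75. The period gene Per2 had 36.0 and 34.1 against 125.2 and 96.2, and Per1 rose 1.58-fold. Nr1d2, which encodes Rev-erb beta, had 74.0 and 76.9 against 182.2 and 174.4. Usp2, a deubiquitinase of clock output, rose 2.37-fold, and the cryptochrome Cry2 1.68-fold. Nr1d1, which encodes Rev-erb alpha, was at 0.32 and not called, with 41.0 and 32.5 against 54.1 and 38.4, whereas the 10% pool stood at 1.17 above the control. Clock was the only tested gene of the positive arm, at -0.36 and not called. On the scale of the identity genes, Dbp, Tef, Hlf, Per2, Nr1d2 and Usp2 rose. Of the 8 risers 6 lay apart from the lymphocyte score, with Per2 at -0.78 and Per1 at -0.77 close to the limit. Tef and Hlf ran against it at -0.83 and -0.80.

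The promoters of the clock genes that rose were searched for the E-box CACGTG, the element bound by Clock and its partner, and for the D-box TTATGTAA or its reverse TTACATAA, the element bound by Dbp, Tef and Hlf, on both strands of the 250 bases before the start. RefSeq sequences of build GRCr8 were found for 7 of the 8 genes, and Hlf had no entry. An E-box was found in 1 gene, Tef, and a D-box in 1, Per2, and the motifs did not overlap. Of all 33469 promoters, 5.59% held the E-box and 0.828% the D-box in the same window. Both promoters are shown 5′ to 3′ with the motif in capitals, as the only ones of the 7 genes with a match. Tef lies at chr7:115206577-115206826 on the plus strand and Per2 at chr9:99496994-99497243 on the minus strand. A match is a description of the letters and not a site in use.
Tef: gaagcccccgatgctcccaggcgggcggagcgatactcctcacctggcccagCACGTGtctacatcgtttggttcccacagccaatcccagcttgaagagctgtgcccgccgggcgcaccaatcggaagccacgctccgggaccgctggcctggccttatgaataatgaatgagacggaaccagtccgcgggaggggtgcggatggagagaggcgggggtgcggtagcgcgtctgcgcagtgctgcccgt
Per2: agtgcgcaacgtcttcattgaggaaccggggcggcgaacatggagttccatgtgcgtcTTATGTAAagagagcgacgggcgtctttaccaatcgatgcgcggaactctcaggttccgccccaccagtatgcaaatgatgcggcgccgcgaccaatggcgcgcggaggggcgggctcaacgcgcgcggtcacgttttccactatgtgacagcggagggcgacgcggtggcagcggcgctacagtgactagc

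Genes apart from the lymphocyte score and outside these pathways also rose strongly. Star, which brings cholesterol into mitochondria for steroid synthesis, had 73.9 and 61.0 in the control pool and 387.7 and 370.0 in the 20% pool, a 5.64-fold rise. Hrh3, a histamine receptor, had 28.1 and 16.3 against 128.5 and 128.0, and Coq8a, an atypical kinase of ubiquinone synthesis, 126.0 and 136.2 against 522.7 and 509.5. All of these chips of the 20% pool lay above both control chips. Adh1c, an alcohol dehydrogenase, rose 2.86-fold and Nupr1, a stress-induced nuclear protein, 2.73-fold. Gabbr1, a GABA-B receptor subunit, rose 4.99-fold from 64.3 and 70.6 to 344.4 and 328.7, but its probe set ran against the lymphocyte score, with a correlation of -0.86. Only 6 genes were at least 4-fold higher, namely Tef, Dbp, Hrh3, Star, Gabbr1 and Pcp4.

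**Figure D4:**
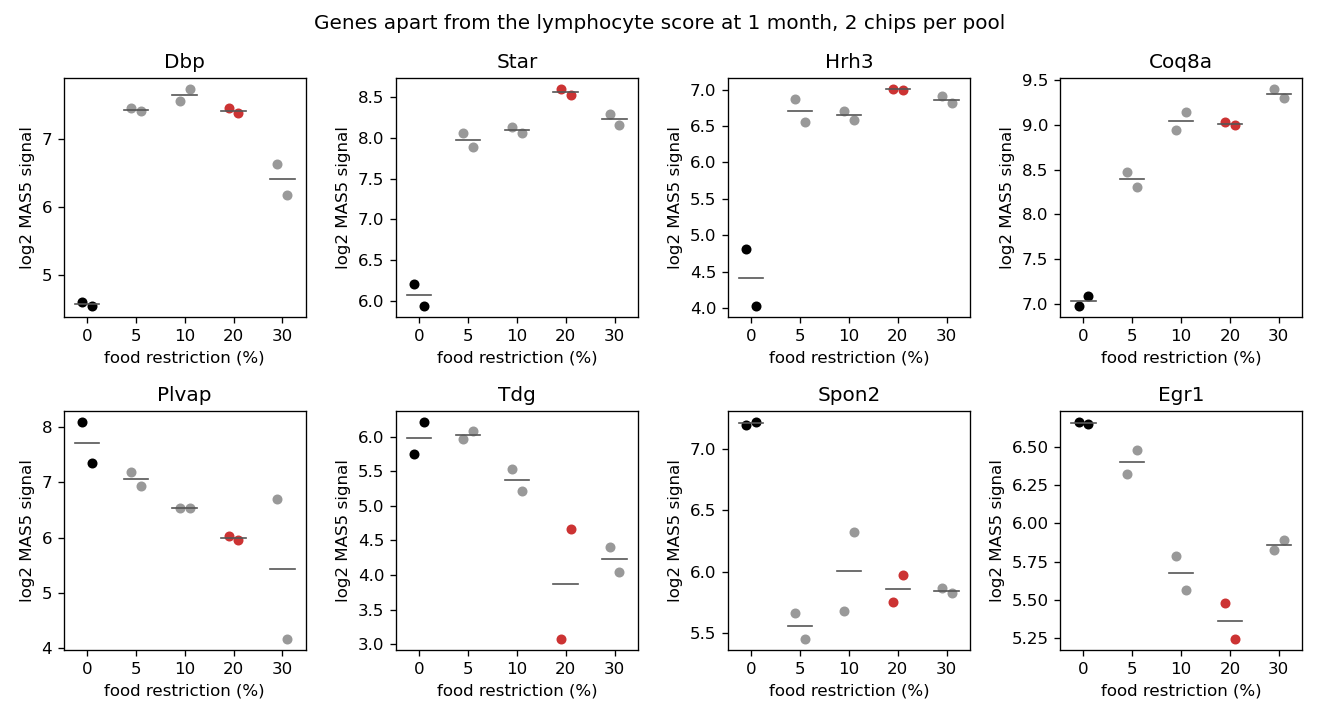
Signal of 4 rising and 4 falling genes that lie apart from the lymphocyte score (log2 MAS5 signal, axes that do not start at 0) in the 5 pools at 1 month, by food restriction in percent; points are the 2 chips of a pool, lines their mean, with control in black and 20% in red. Dbp, Star, Hrh3 and Coq8a rose in the 20% pool, and all restricted pools lie above the control, whereas Tdg is 4.31-fold lower at 20% and about level with the control at 5%.

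Genes of several kinds fell apart from the lymphocyte score. Tdg, a DNA glycosylase that removes mismatched thymine, had 53.6 and 74.0 in the control pool and 8.4 and 25.4 in the 20% pool; the 20% chips lay far apart, but both were below both control chips. Plvap, a protein of the fenestrae of vessel walls, had 272.1 and 162.6 against 65.1 and 61.8. Spon2, a secreted matrix protein of innate immunity, had 147.0 and 148.9 against 53.8 and 62.9. Egr1, an immediate early transcription factor, had 101.0 and 100.3 against 44.6 and 37.9, and 4 of 11 immediate early genes fell and none rose. Junb and Nr4a1 fell by 1.00 and 0.95 on the log2 scale and Ier2 by 0.64.

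Further fallers were myeloid genes. Fcna, the ficolin of plasma and macrophages, had 1206.9 and 1329.8 in the control pool and 431.3 and 433.2 in the 20% pool. Fcgr3a, an immunoglobulin receptor of macrophages and natural killer cells, was 3.20-fold lower, and the paired receptor genes Pilra and Pilrb2l4 were 2.78-fold and 2.65-fold lower. Their correlations with the lymphocyte score, 0.79, 0.73, 0.76 and 0.61, were short of the limit of 0.8. Of 17 macrophage markers 11 fell and none rose, with a median of -0.77, and 8 of the 17 followed the score. Cd68 (-1.12) and Csf1r (-0.68), which define macrophages, fell and did not follow it. The part of lymphoid tissue in the lower macrophage markers was not tested. Cnp, a phosphodiesterase of myelin, Isyna1, which makes inositol phosphate, Cdca3, a cell division gene, and Cbx7, a Polycomb protein, fell by 1.29, 1.27, 1.45 and 1.43.

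Structural and housekeeping lists are set beside all tested genes, of which 6.3% rose and 10.2% fell, with a median of -0.03. Outside actin and tubulin, calls in these lists were about as frequent as over all genes, or rarer. Of 21 actin and tubulin genes 9 fell and 2 rose, with a median of -0.57. Cotl1, a coactosin of leukocytes, led at -2.85 and followed the lymphocyte score, as 12 of the 21 did. Tpm3 (-1.05) was just short of the limit, with a correlation of 0.785. All 20 cytosolic ribosomal protein genes were lower in both chip pairs, with differences from -0.62 to -0.22, but Rps15 alone reached the call. Of 18 cytosolic chaperones Hsph1 (-0.86) and Chordc1 (-0.76) fell, with a median of -0.30, and of 23 genes of endoplasmic reticulum folding 3 fell and Xbp1 rose (1.57-fold). Among 32 collagens and matrix genes Postn rose 1.61-fold and Lox, Eln and Fbn1 fell by 0.66, 0.65 and 0.63. The median of this list was -0.03 and turned to 0.07 with median centring and 0.003 with quantile normalization. With the identity genes set to no change, 1 of the actin and tubulin genes rose and 18 fell. On that scale 20 of the ribosomal, 13 of the chaperone, 14 of the endoplasmic reticulum and 12 of the matrix genes fell, beside 3010 of 7113 over all tested genes.

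Slpi, a secreted inhibitor of leukocyte proteases that stands in the mesothelial list, was 12.8-fold lower, with 1136.6 and 1200.9 in the control pool and 90.4 and 91.8 in the 20% pool. It followed the lymphocyte score at 0.98. Of 8 tested mesothelial markers 1 rose and 2 fell, Slpi among the fallers. Krt18 fell by 0.79 (log2) and Gpm6a rose by 0.77. The defining mesothelial markers Msln and Wt1 were at 0.18 and 0.15 and were not called. Of 13 endothelial markers Plvap, Cldn5 and S1pr1 fell and Gpihbp1, which holds lipoprotein lipase at the capillary wall, rose 1.62-fold, while Pecam1 was at -0.11. S1pr1 followed the lymphocyte score at 0.95 and Gpihbp1 ran against it at -0.88, while Plvap (0.23) and Cldn5 (0.70) lay apart from it. Markers of exocrine pancreas, skeletal muscle, red cells and mast cells were tested for 4, 3, 3 and 3 genes, of which Cela1 rose (0.61) and Slc4a1 fell (-0.64), and no epididymis or testis gene had enough signal.

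Smooth muscle genes rose in the 20% pool. Of 14 smooth muscle and pericyte markers 8 rose and none fell, with a median of 0.87. Cnn1, which encodes calponin, had 52.0 and 55.7 in the control pool and 184.9 and 193.9 in the 20% pool. Actg2, the enteric smooth muscle actin, had 287.4 and 248.8 against 910.7 and 789.6, and Myh11, the smooth muscle myosin, 268.2 and 258.7 against 644.5 and 674.5. Des (desmin) and the tropomyosin Tpm2 rose 2.27-fold and 2.32-fold, and Pcp4, a calmodulin-binding peptide, 4.76-fold. Acta2, the vascular smooth muscle actin, was at 0.28 and the pericyte gene Rgs5 at 0.14, and neither was called. Relative to the identity genes, Cnn1, Actg2, Myh11, Des and Tagln rose and Notch3 fell.

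The rise was not shared by the neighbouring levels. The mean log2 signal of the 14 markers was 6.71 in the control pool, 7.37 at 5%, 6.57 at 10%, 7.51 at 20% and 6.90 at 30% after 1 month. At 1 week it was 6.97 in the control pool and 6.60 at 20%. The part of the amount of smooth muscle in the sampled pieces in these values was not tested.

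**Figure D5:**
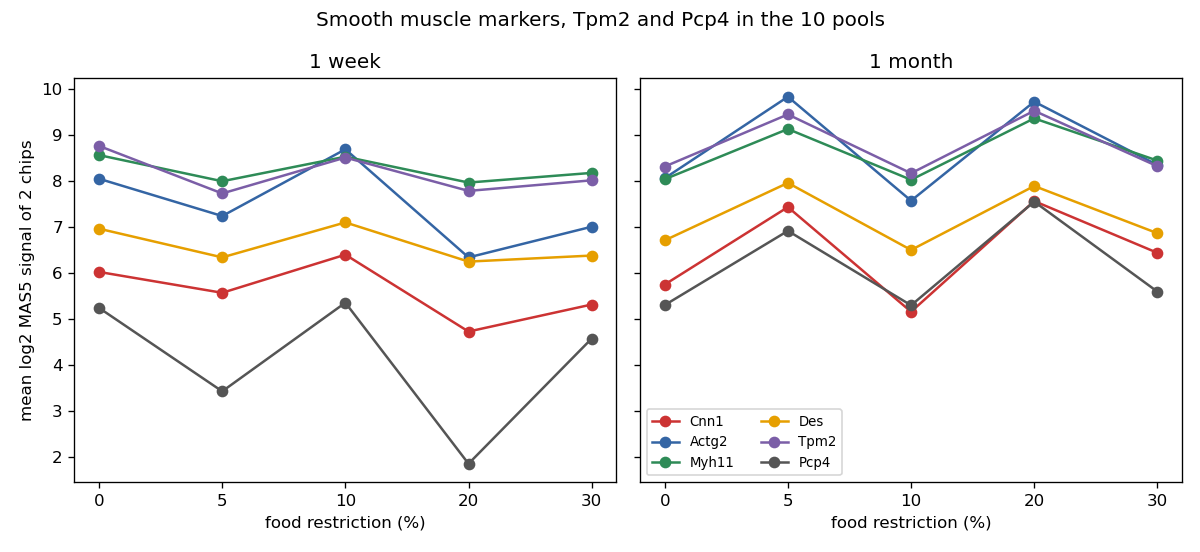
Mean log2 MAS5 signal of 2 chips for 4 smooth muscle markers, Tpm2 and Pcp4 (axis that does not start at 0) in the 5 pools at 1 week (left) and at 1 month (right), by food restriction in percent; each line is a gene. At 1 month the genes are high at 5% and 20% and low at 0, 10% and 30%, and at 1 week the 20% pool is the lowest for all but Tpm2, which is lowest at 5%.

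The 10% pool of 1 month had nearly the same lymphocyte score as the 20% pool, 3.76 against 3.86. Chips of these pools correlated at 0.969 to 0.976. Between them 198 genes were higher in the 20% pool (2.78%) and 76 lower (1.07%). Smooth muscle markers were the list that differed most in count, with 8 of 14 higher at 20% and a median difference of 1.12. Cnn1, Actg2 and Pcp4 were 2.41, 2.15 and 2.26 (log2) higher at 20% than at 10%. The metabolic lists lay close together: the median difference between the pools was -0.06 for mitochondrial beta-oxidation, -0.02 for lipolysis and lipid droplets and 0.07 for phase I enzymes.

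The comparisons of 5%, 10%, 20% and 30% restriction at 1 month share the control chips, so their values are only set side by side. Against the control, the medians at 5%, 10%, 20% and 30% were 0.27, 0.65, 0.58 and 0.67 for mitochondrial beta-oxidation, 0.12, 0.48, 0.54 and 0.49 for branched-chain amino acid catabolism, and 0.83, 0.74, 0.75 and 0.51 for clock output. Dbp stood at 2.86, 3.07, 2.84 and 1.83, Star at 1.91, 2.03, 2.50 and 2.16, and Ehhadh at 1.30, 1.57, 1.91 and 1.92. For Dbp the 30% pool was lowest among the restricted pools, and for Star the 20% pool was highest. Pparg stood at 0.65, 1.36, 1.14 and 0.86.

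The same pair of levels at 1 week shares no chips with that at 1 month. There 510 genes were higher (7.17%) and 616 lower (8.66%) in the 20% pool. Apart from the lymphocyte score, 162 of the 315 genes that rose at 1 month also rose at 1 week (51.4%, or 46.8% of the 346 that rose at 1 week), beside 6.62% of all 5228 such genes. In the other direction 89 of 285 fell at both (31.2%, or 34.4% of 259), beside 4.95%. Pancreas genes were high in the control pool of 1 week, with a mean log2 signal of 12.40 over 4 pancreas genes against 3.86 in the 20% pool. They were at 3.88 and 4.12 in the control and 20% pools of 1 month. The 30% pool of 1 week, which enters the correlations with the lymphocyte score, stood at 7.36. The part of pancreatic RNA in the 1-week values and in these correlations was not tested. Dbp, Star, Coq8a and Ehhadh stood at 2.99, 1.82, 2.05 and 2.05 (log2) at 1 week. Smooth muscle genes went the other way, with Cnn1 at -1.30 and Actg2 at -1.71. In all, 21 of the 315 risers fell at 1 week and 2 of the 285 fallers rose.

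A spread between pools exists only over both durations, where 2 pools stand at each level. The limma contrast of 20% against control over both durations, which includes the pools described above and is no independent check of them, called 488 genes higher (6.86%) and 349 lower (4.91%) at an adjusted p under 0.05. Of the genes apart from the lymphocyte score, 191 of the 315 that rose at 1 month (60.6%) and 85 of the 285 that fell (29.8%) passed it in the same direction. Adjusted p-values of limma were 0.000405 for Pde3b, Nampt and Glul, 0.000637 for Ehhadh, 0.000769 for Coq8a, 0.000821 for Dbp and Hrh3, and 0.00225 for Star. They were 0.0029 for Pparg, 0.00257 for Lpin1, 0.00161 for Ephx1, 0.0186 for Tef and 0.0118 for Per2. Of the fallers, Plvap (0.0172), Dhcr7 (0.017), Hmox1 (0.0159) and Egr1 (0.0261) passed. With the lymphocyte score as a covariate these 4 fallers lost the call (adjusted p = 0.0601, 0.113, 0.113 and 0.194), as did Tef (0.131) and Per2 (0.0837). The other genes of this paragraph that passed kept it. The estimates of the genes that lost the call kept their sign. Plvap went from -1.33 to -1.46, Dhcr7 from -1.26 to -0.91, Hmox1 from -1.21 to -1.01 and Egr1 from -0.98 to -0.74 (log2). Tef went from 2.39 to 1.96 and Per2 from 1.42 to 1.07. Cd79b, Cd3g, Cnn1 and Crem did not pass, with adjusted p-values of 0.264, 0.119, 0.861 and 0.597. Crem, a cAMP-responsive repressor, had 39.1 and 15.5 against 104.7 and 83.1 at 1 month and was at -0.73 at 1 week.

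By list, the contrast called 14 of 19 genes of mitochondrial beta-oxidation, 8 of 14 peroxisomal genes, 10 of 18 of branched-chain amino acid catabolism, 9 of 13 clock output genes and 11 of 19 phase I enzymes higher, and none of these lower. It called 1 of 14 smooth muscle markers higher and none lower, 8 of 17 macrophage markers lower and none of 12 T cell markers in either direction. These counts rest on few pools and on the fit without the lymphocyte score. With the score as a covariate, Acadl, Ehhadh, Ech1, Dbp, Nr1d2, Ephx1 and Por kept the call among the named genes of the lists called higher. Cpt2, Cpt1b, Etfdh, Decr2, Pecr, Hibch, Bckdha, Mccc1, Akr1c14 and Fmo1 lost it. So did the clock genes Tef, Hlf, Per1, Per2, Cry2, Bhlhe41 and Usp2. Over probe sets the contrast called 603 higher and 459 lower, and leaving out the control or the 20% pool of 1 week gave 57 and 145 higher and 5 and 119 lower. Leaving out the control or the 20% pool of 1 month gave 118 and 57 higher and 20 and 4 lower. With the lymphocyte score as a covariate 87 were higher and 16 lower.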

How the data were processed

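Adipose RNA of 10 groups of male Wistar rats was measured on 20 chips. The authors deposited linear intensity values, namely MAS5 signals made with Affymetrix software (MAS5 is also named in the submitters' processing notes); its version, detection calls and change calls were not used here. Array controls (57) were dropped from 15923 probe sets. Signals under 1 (2.06% and 2.32% of control and 20% signals at 1 month) were set to 1 and log2 was taken. The filter kept probe sets whose log2 signal, averaged over all chips, reached the 40th percentile (22.8 as a signal). Of 15866 probe sets 12783 had 1 symbol, 312 several and 2771 none, and 12778 symbols matched RefSeq (GRCr8). Each gene was represented by its brightest probe set.

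Two-sided limma 3.58.1 (R 4.3.3; lmFit, eBayes with trend, Benjamini-Hochberg) was fitted to the 10 pool means with duration and level as factors (4 residual degrees of freedom). The steps ran in Python 3.11.15 and were tested on simulated data. Named genes were the 12 rising and 12 falling apart from the lymphocyte score and 8 with it of largest smaller chip-pair difference, up to 4 called genes per list (2 where none was called), clock, score and identity genes, and those the study named; list members outside this rule were picked after their values were seen. Genes and lists were chosen with earlier results of these data known. The number of arrays limits the precision.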

Additional observations from a re-analysis of the deposited data

Results flagged for a closer look

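Of the genes chosen by the naming rule and called at 1 month, 8 had both chip pairs of 1 week in the opposite direction. Of the smooth muscle markers these were Cnn1 (1.81 at 1 month and -1.30 at 1 week, log2), Actg2 (1.67 and -1.71), Myh11 (1.32 and -0.60) and Des (1.18 and -0.72), and Tpm2 (1.21 and -0.98) and Pcp4 (2.25 and -3.39) ran the same way. Crem moved likewise (1.92 and -0.73). Cela1, a pancreatic elastase, stood at 0.61 and -5.96, and the control pool of 1 week had high pancreas signals. The differences between the durations were not tested.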

How the results depend on the processing

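Of 129 alternative medians of 43 lists, 5 changed sign, in insulin and IGF signalling, collagens and matrix, and skeletal muscle. Without the filter on low signals 1427 probe sets rose and 2374 fell at 1 month, and a minimum of 2-fold left 130 and 374. A filter at the 60th percentile left 483 that fell. Setting the mean of the adipocyte identity genes to no change, an alternative added after seeing the data, gave 97 and 4089. Single chip pairs gave 680 to 773 higher and 1137 to 1215 lower. With no replicate block, asking all 4 chip-to-chip differences for 1 sign, 592 rose and 963 fell. At 1 month chips of the same number deviated together at 0.152 for the compared pools and at -0.087 to 0.225 over 10 pool pairs. The numbers were therefore not taken to pair samples beyond their scaling. At 1 week replicate 2 was brighter than replicate 1. The identity means of replicates 1 and 2 were 8.94 and 9.46 in the control pool and 9.32 and 9.84 in the 20% pool. Correlation limits of 0.7 and 0.9 for the lymphocyte score gave 320 and 535 risers and 292 and 577 fallers apart from it.

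The limma contrast over both durations called 310 to 359 higher and 145 to 271 lower from 1 chip per pool, and 275 lower without the filter. Leaving out the control pool at 1 week gave 57 higher and 5 lower, the 20% pool at 1 week 145 and 119, the control pool at 1 month 118 and 20, and the 20% pool at 1 month 57 and 4. With the lymphocyte score as a covariate 87 were higher and 16 lower. Fewer pools and degrees of freedom enter these fits. Signals near the floor, as of Cd79b and Tef, limit how large a fold can be stated.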
